A study of Rattus norvegicus with 6 samples.

Results

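The RT1 complex is the major histocompatibility complex of the rat, and its genes were followed here with the genes that prepare peptides for it in cultured aortic cells of a hypertensive and a normotensive rat strain. The genes were chosen by name: every row of the deposited count table with a symbol that starts with RT1-, and B2m, Tap1, Tap2, Tapbp, Psmb8, Psmb9, Psmb10, Psme1, Psme2, Cd74, Nlrc5, Ciita and Erap1. This gave 38 of 16770 genes, made up of 19 class I RT1 genes, 6 class II RT1 genes and 13 processing genes. The study sequenced RNA from primary cells of the proximal aorta, labelled endothelial and grown in a medium for endothelial cells, from spontaneously hypertensive rats (SHR) and Wistar Kyoto rats (WKY). Both strains were 3 months old, and no treatment is named in the labels. Each strain had 3 libraries of paired reads of 100 bases, of which replicates 1 and 2 are labelled batch 1 and replicate 3 is labelled batch 2. The labels do not say whether each library came from a separate rat, so p-values measure only the spread between these libraries.

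The libraries held 18462032 to 19947286 estimated counts, of which the 38 genes took 0.107% to 0.178%. The label was checked against marker genes, and most of the defining endothelial genes were nearly absent. Cdh5, Kdr and Tie1 did not pass 0.936 CPM (estimated counts in each 1000000 of a library) in any library, and Pecam1 did not pass 2.18 CPM. Tek, an endothelial receptor, was at 0.656, 1.85 and 0.435 CPM in WKY and at 4.72, 9.38 and 8.32 CPM in SHR, with separate strains and a log2 fold change of 3.00 (edgeR adjusted p = 0.182, DESeq2 adjusted p = 0.000383). The 8 endothelial markers with a row summed to 16.7 to 23.4 CPM in WKY and 19.3 to 37.4 CPM in SHR, mostly from Egfl7 except in SHR replicate 3, where Tek was the largest part. The 6 fibroblast markers summed to 4573 to 13597 CPM in WKY and 9244 to 11361 CPM in SHR, and Lum, Dpt, Dcn and Pdgfra lay higher in every SHR library than in every WKY library. The 5 smooth muscle markers summed to 620 to 7107 CPM in WKY, where replicate 3 was highest, and to 729 to 1292 CPM in SHR. Among 12 leukocyte and antigen-presenting cell markers with a row, Ptprc, Aif1, Itgam and C1qa were at 0 in every library, and the summed level of 4.23 to 29.9 CPM in WKY and 15.8 to 29.3 CPM in SHR came mostly from Cd68. The cells are therefore called cells labelled endothelial below, and the part of this cell makeup in the strain differences was not tested. In RNA from whole cultures, fewer cells of a type and less RNA per cell cannot be told apart.

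Class I molecules show peptides from inside the cell to cytotoxic T cells and natural killer cells. Each is a heavy chain encoded by an RT1 gene, paired with the light chain B2m. The proteasome cuts proteins into peptides, Psmb8, Psmb9 and Psmb10 replace its standard catalytic subunits under interferon, the Tap1 and Tap2 transporter carries peptides into the endoplasmic reticulum, Tapbp holds the empty class I molecule to that transporter, and Erap1 trims the peptides. Class II molecules show peptides from outside the cell and are made mainly by professional antigen-presenting cells, and in rat endothelium after interferon. Nlrc5 and Ciita are the transactivators of the class I and class II genes. SHR and WKY carry different RT1 haplotypes, and the number of class I genes differs between rat haplotypes.

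The upstream sequences are shown first because class I and processing genes are known targets of NF-kappaB and of interferon regulatory factors, and because close class I relatives differ here in single bases. They come from the RefSeq table of build GRCr8, which holds 250 bases before each gene start and 50 from it on and is the Brown Norway genome, not that of SHR or WKY. Of the 38 genes, 33 had an entry. The kappaB core GGGATTCCC was searched on both strands and occurred in 5 of 18 class I windows (RT1-A1, RT1-A2, RT1-CE4, RT1-CE10 and RT1-CE13), in 0 of 10 windows of processing genes and in 0.3645% of all 33469 windows. A stretch with at most 1 base changed from this core lay within 30 bases before TTTCANTTC, letters that resemble an interferon response element, in 7 of 18 class I windows and in 0.0299% of all windows. Only 10 of 33469 windows held this pair, and its pattern follows the layout that the 7 class I windows share. The class I genes are close relatives, so their windows are not independent, and these shares are a description and not a test. The 39 bases around both are given 5′ to 3′ in the direction of the gene, with the 9 letters of the core or its variant in capitals.
RT1-A1, chr20:4907074-4907112, plus strand: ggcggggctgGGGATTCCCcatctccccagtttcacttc
RT1-A2, chr20:4872687-4872725, plus strand: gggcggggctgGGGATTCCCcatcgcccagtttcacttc
RT1-CE4, chr20:3509321-3509359, minus strand: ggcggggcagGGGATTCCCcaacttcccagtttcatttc
RT1-CE10, chr20:3385145-3385183, minus strand: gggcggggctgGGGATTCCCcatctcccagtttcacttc
RT1-CE13, chr20:3322895-3322933, minus strand: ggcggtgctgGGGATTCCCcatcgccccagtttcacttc
RT1-CE3, chr20:3525313-3525351, minus strand: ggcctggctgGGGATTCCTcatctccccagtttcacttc
RT1-CE5, chr20:3484228-3484266, minus strand: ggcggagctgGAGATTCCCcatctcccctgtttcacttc
Counted from 1 at the first capital, RT1-CE3 differed from the core by C9T and RT1-CE5 by G2A. The other 11 class I windows, among them those of RT1-CE2, RT1-N2 and RT1-N3, held no such pair of stretches. A match or its lack is a description of these letters and says nothing about binding.

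A second search, for the interferon response core GAAANNGAA on both strands, found it in 7 of 10 windows of processing genes (B2m, Tap1, Tap2, Tapbp, Psmb8, Psmb10 and Psme2), in 3 of 18 class I windows and in 9.71% of all windows. The matches of Tapbp overlap each other, and no gene held both this core and the kappaB core. This core is spaced otherwise than TTTCANTTC and cannot match it on either strand. The stretches beside the kappaB core in the class I windows above are therefore not counted here. The bases around the first match are shown for the light chain and for processing genes whose levels are described below, with the core in capitals, read on the opposite strand for Tap1 and Psmb8. The Psmb8 match begins 3 bases before the gene start and runs past it.
B2m, chr3:129549168-129549200, plus strand: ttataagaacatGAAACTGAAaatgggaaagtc
Tap1, chr20:4668643-4668675, minus strand: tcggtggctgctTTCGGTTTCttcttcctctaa
Tapbp, chr20:4967883-4967915, minus strand: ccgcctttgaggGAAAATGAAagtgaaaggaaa
Psmb8, chr20:4657026-4657046, minus strand: ggtgctgtggctTTCGCTTTC
Psmb9, which neighbours Tap1, held no match, which says only that these letters are not in its window.

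Strain differences among class I genes went in both directions. RT1-CE4 rose in SHR and RT1-CE3 fell. RT1-A1, RT1-CE2, RT1-CE5 and RT1-N2 also had separate SHR and WKY libraries but did not pass the test, and the summed class I level did not pass it either. With edgeR, 1 of the 29 genes tested was called higher in SHR and 1 lower at an adjusted p below 0.05, against 0.103% and 0.151% of 12614 genes. At an unadjusted p below 0.05, 6 of the 29 were higher and 5 were lower, against 6.1% and 7.18% of all genes. DESeq2 called 4 of 34 genes higher (RT1-A1, RT1-CE2, RT1-CE4 and Psmb8) and 5 lower (RT1-CE3, RT1-CE5, RT1-N2, Tap1 and Ciita), against 2.68% and 2.46% of all genes. SHR and WKY had separate ranges for 11 of 29 genes, against 9.81% of all genes tested, and 6 of these 11 were among the 15 class I genes tested. RT1-DMb and Psme2 were among the 11 by narrow margins, given below. The median size of the log2 fold change was 0.93 over the 15 class I genes, 0.30 over 12 processing genes and 0.22 over all genes, while the median signed log2 fold change of the class I genes was 0.33, against -0.02 over all genes. Filtering for counts bears on the 29, since a gene at low level in 1 strain can pass through the other strain.

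In the values that follow, 3 levels are given for each strain in the order of replicates 1, 2 and 3, and fold changes are SHR over WKY on the log2 scale from the edgeR fit with batch as a term. RT1-CE4 (gene ID 414783), a class I gene of the RT1-CE region, was at 2.61, 2.92 and 3.40 CPM in WKY and at 15.3, 13.4 and 25.2 CPM in SHR. Every SHR library lay above every WKY library, in both batches. It rose by 2.54 (SE 0.20, 95% confidence interval 2.04 to 3.04, adjusted p = 0.0177), a fold change of 5.83, and the differences were 2.18 within batch 1 and 2.72 within batch 2. The call held without WKY replicate 2 (adjusted p = 0.0411) and was lost without WKY replicate 1 (0.0776), WKY replicate 3 (0.0542), SHR replicate 1 (0.160), SHR replicate 2 (0.134) or SHR replicate 3 (0.0721), within batch 1 alone (0.0588), with the replicate number as a block (0.0868) and without the batch term (0.181). The fold change ranged only from 2.37 to 2.64 over all these settings.

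RT1-CE3 (gene ID 414793), its relative from the same region, was at 19.5, 16.4 and 22.9 CPM in WKY and at 6.35, 5.35 and 7.11 CPM in SHR. All 3 SHR libraries were below all 3 WKY libraries, the reverse of RT1-CE4. It fell by 1.64 (SE 0.17, 95% confidence interval -2.05 to -1.23, adjusted p = 0.0373), with differences of -1.54 within batch 1 and -1.62 within batch 2. This call was lost without any single library, with adjusted p = 0.139, 0.0598 and 0.132 without WKY replicates 1, 2 and 3 and 0.183, 0.187 and 0.111 without SHR replicates 1, 2 and 3. It was also lost within batch 1 alone (adjusted p = 0.103), with the replicate block (0.129) and without the batch term (0.302), while the fold change stayed between -1.71 and -1.58. DESeq2 gave adjusted p of 4.16e-20 for RT1-CE4 and 7.08e-12 for RT1-CE3. The 2 genes moved in opposite directions, and the sum of their counts differed by a log2 fold change of 0.08 (edgeR adjusted p = 0.858). They were summed because the same test had called them in opposite directions. Such a choice favours a sum that cancels, so this value is no evidence of an exchange of reads between them.

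**Figure D1:**
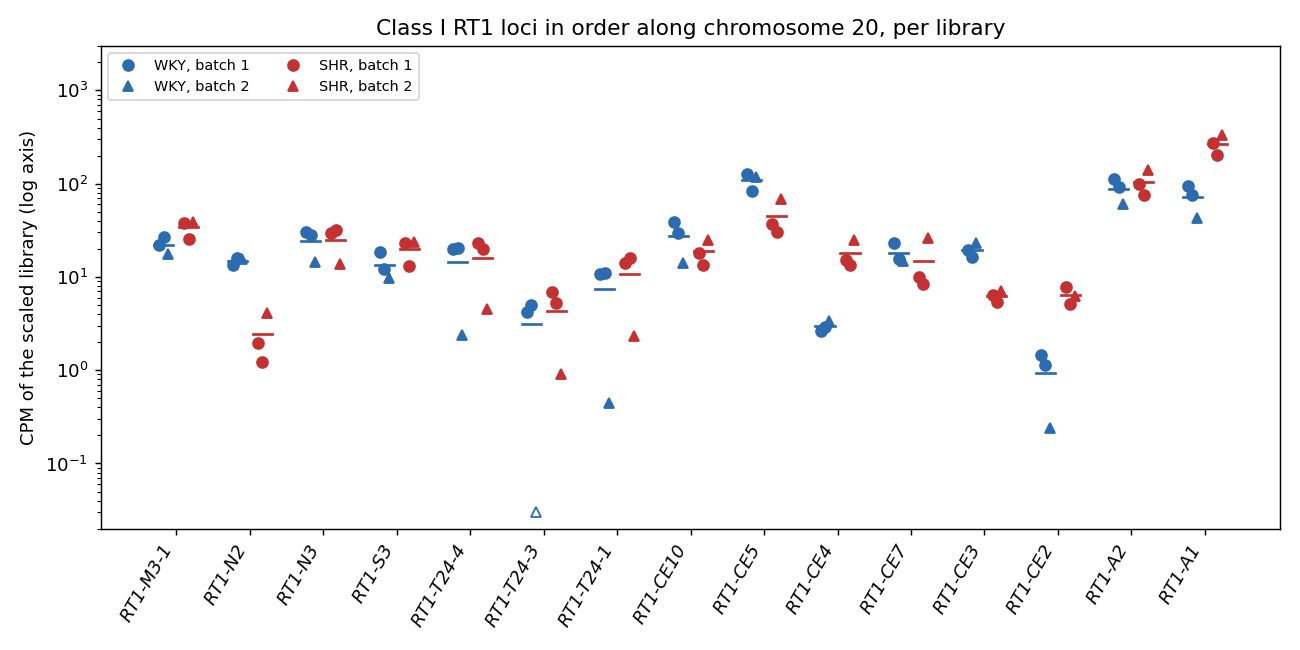
Level in CPM on a log axis, for the 15 class I genes tested in their order along chromosome 20. Each point is a library, blue for WKY and red for SHR, circles for batch 1 and triangles for batch 2, bars are strain means, and an open symbol at the foot of the axis stands for a library at 0. RT1-CE4, RT1-CE2 and RT1-A1 lie higher in all 3 SHR libraries, and RT1-CE3, RT1-CE5 and RT1-N2 lie lower in all 3.

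The RT1-A genes encode the classical class I heavy chains, the main peptide-presenting molecules of the rat. RT1-A1 was at 95.4, 75.4 and 42.8 CPM in WKY and at 272, 201 and 330 CPM in SHR. The lowest SHR library was above the highest WKY library. The log2 fold change was 1.95 (SE 0.36, 95% confidence interval 1.05 to 2.86, adjusted p = 0.151), and the mean was 71.2 ± 26.6 CPM over the 3 WKY libraries against 268 ± 64.97 CPM over those of SHR (SD), and differences of 1.46 within batch 1 and 2.94 within batch 2. DESeq2 called this gene (adjusted p = 6.64e-06), and edgeR called it under none of the settings tried. RT1-A2, which has the same kappaB core upstream, was at 113, 92.0 and 60.3 CPM in WKY and at 99.5, 75.8 and 139 CPM in SHR. Its libraries overlapped, with a log2 fold change of 0.24 (95% confidence interval -0.60 to 1.08, adjusted p = 0.790) and differences of opposite sign in the batches, -0.23 in batch 1 and 1.19 in batch 2.

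The RT1-CE region holds many nonclassical or less well characterised class I genes, and its remaining measured members differed among themselves. RT1-CE5 was at 127, 84.2 and 117 CPM in WKY and at 36.6, 30.2 and 67.9 CPM in SHR. No SHR library reached the lowest WKY library, and the log2 fold change was -1.37 (SE 0.26, 95% confidence interval -2.02 to -0.72, edgeR adjusted p = 0.158, DESeq2 adjusted p = 0.000293). RT1-CE2 was lower in level, at 1.46, 1.12 and 0.241 CPM in WKY and at 7.71, 5.17 and 6.29 CPM in SHR. Here too the strains did not overlap, with a log2 fold change of 2.93 (SE 0.56, 95% confidence interval 1.55 to 4.31, edgeR adjusted p = 0.152, DESeq2 adjusted p = 5.88e-05). It was 2.32 without either replicate 3. RT1-CE7 was at 23.1, 15.7 and 15.0 CPM in WKY and at 9.93, 8.48 and 26.4 CPM in SHR, and RT1-CE10 at 39.0, 29.5 and 14.0 CPM in WKY and at 18.3, 13.3 and 25.1 CPM in SHR. Both were lower in SHR in batch 1 and higher in SHR in batch 2. Their log2 differences were -1.02 and -1.10 in batch 1 and 0.80 and 0.82 in batch 2, and the strain term gave adjusted p of 0.699 for RT1-CE7 and 0.690 for RT1-CE10. RT1-CE13 was too low to test, with estimated counts of 5.11, 4.46 and 2 in WKY and 0 in all 3 SHR libraries.

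Among the RT1-N genes, RT1-N2 was at 13.5, 16.0 and 15.4 CPM in WKY and at 1.95, 1.22 and 4.09 CPM in SHR. The strains did not overlap, and the log2 fold change was -2.76 (SE 0.37, 95% confidence interval -3.69 to -1.84), which missed the threshold (edgeR adjusted p = 0.0811, DESeq2 adjusted p = 1.13e-08). RT1-N3 was at 30.2, 27.99 and 14.5 CPM in WKY and at 29.6, 31.9 and 13.8 CPM in SHR. Its strain difference was 0.03 (SE 0.13, adjusted p = 0.933), while both strains were lower in batch 2. The ratio of RT1-N2 to RT1-N3 counts was 0.446, 0.571 and 1.06 in WKY and 0.0658, 0.0383 and 0.295 in SHR.

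RT1-M3-1 belongs to the family of mouse H2-M3, a nonclassical molecule that presents N-formylated peptides. It was at 21.8, 26.5 and 17.8 CPM in WKY and at 38.3, 25.3 and 38.9 CPM in SHR. SHR replicate 2 lay within the WKY range, and the log2 fold change was 0.64 (SE 0.24, adjusted p = 0.362). RT1-S3 is related to mouse Qa-1, a ligand of natural killer cell receptors. It was at 18.6, 12.3 and 9.82 CPM in WKY and at 23.0, 13.1 and 23.8 CPM in SHR, with a log2 fold change of 0.57 (with SE 0.35, adjusted p = 0.546) and overlapping strains. RT1-O1 and RT1-S2 were too low to test, and RT1-M1-2 was at 0 in every library, where a count of 0 allows 3 counts or 0.151 to 0.187 CPM. Such floors and intervals from counts cover counting error only.

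The 3 RT1-T24 genes fell in batch 2, and their strain terms did not pass the test. RT1-T24-1 was at 10.9, 11.1 and 0.450 CPM in WKY and at 14.1, 16.2 and 2.30 CPM in SHR, RT1-T24-4 at 20.1, 20.4 and 2.41 CPM in WKY and at 23.0, 19.9 and 4.57 CPM in SHR. In both strains the library of batch 2 was the lowest. RT1-T24-3 was at 4.24, 5.06 and 0 CPM in WKY and at 6.91, 5.26 and 0.907 CPM in SHR. Batch 2 against batch 1 gave log2 differences of -3.45 for RT1-T24-1 (adjusted p = 0.00413), -2.61 for RT1-T24-4 (adjusted p = 0.00191) and -3.88 for RT1-T24-3 (adjusted p = 0.0268), while their strain terms had adjusted p of 0.393, 0.564 and 0.609. Over the 29 genes tested, Ciita rose in batch 2 and 7 genes fell (RT1-N3, the 3 RT1-T24 genes, Psmb8, Psmb9 and Psmb10), against 21% and 22.5% of all genes. The strain difference itself was set against batch with an interaction term, for which edgeR called 0 of all genes tested. At an unadjusted p below 0.05 this term had 8 of the 29 genes, against 12.7% of all genes, and the smallest adjusted p among the 29 was 0.212. The 8 genes were Tapbp, with a log2 term of 1.06, and class I genes. The latter were RT1-A1 (1.48), RT1-A2 (1.43), RT1-CE2 (2.31), RT1-CE7 (1.89), RT1-CE10 (1.96), RT1-T24-1 (1.92) and RT1-T24-3 (6.68, with a WKY library at 0). All these terms were positive, so SHR over WKY was higher in batch 2 than in batch 1. Each batch 2 strain difference rests on 1 library per strain.

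Because reads of close relatives can be assigned to one another, the class I genes were also summed in each library. The class I sum was 541, 437 and 336 CPM in WKY and 603, 465 and 716 CPM in SHR. SHR replicate 2 lay inside the WKY range. The log2 fold change was 0.45 (SE 0.27, 95% confidence interval -0.21 to 1.11, adjusted p = 0.537), with differences of 0.12 within batch 1 and 1.09 within batch 2. Without RT1-A1, the class I gene with the highest mean level over the 6 libraries though not in WKY, the sum had a log2 fold change of -0.16 (adjusted p = 0.798). Estimated counts that were not whole, the mark of reads divided among genes, made up 71.1% of class I values against 8.96% of all values in the table (tolerance 0.001), and 12 of 19 class I genes had such values in every library. The processing notes name a single build, Rnor_6.0, and no RT1 sequence of either strain was used here. The part of this division, and of how well each haplotype matches the build, in the differences at single genes was not tested.

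Class I genes were also summed by the family in their symbol, a choice made after the values were seen. The RT1-A sum was 209, 167 and 103 CPM in WKY and 372, 276 and 469 CPM in SHR, with no overlap, a log2 fold change of 1.24 (SE 0.34, 95% confidence interval 0.39 to 2.10), edgeR adjusted p = 0.259 and DESeq2 adjusted p = 0.00984. The RT1-CE sum was 213, 150 and 173 CPM in WKY and 94.1, 75.9 and 158 CPM in SHR, with a log2 fold change of -0.78 (with SE 0.27, adjusted p = 0.333) and differences of -1.08 in batch 1 and -0.13 in batch 2. SHR replicate 3 alone overlapped WKY here. The RT1-N sum had a log2 fold change of -0.54 (edgeR adjusted p = 0.217, DESeq2 adjusted p = 0.0327) and the RT1-T24 sum one of 0.60 (adjusted p = 0.404).

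The makeup of the class I reads separated the strains, while their totals overlapped. RT1-A1 took 17.6%, 17.2% and 12.7% of class I counts in WKY and 45.2%, 43.1% and 46.2% in SHR. RT1-CE5 took 23.5%, 19.3% and 34.9% in WKY and 6.06%, 6.49% and 9.49% in SHR. RT1-A2 held a like share in both, 20.9%, 21.0% and 17.9% in WKY and 16.5%, 16.3% and 19.4% in SHR. RT1-A genes together made up 30.6% to 38.5% of class I counts in WKY and 59.4% to 65.6% in SHR, and RT1-CE genes together 34.4% to 51.4% in WKY and 15.6% to 22.1% in SHR. Shares within a library are parts of a single total, so a higher share of RT1-A1 lowers the others. In level, the RT1-CE sum of SHR replicate 3, 158 CPM, lay inside the WKY range of 150 to 213 CPM. The shares are of reads, not of molecules, since gene length was not taken into account. They are descriptions, chosen after the values were seen, and have no test.

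**Figure D2:**
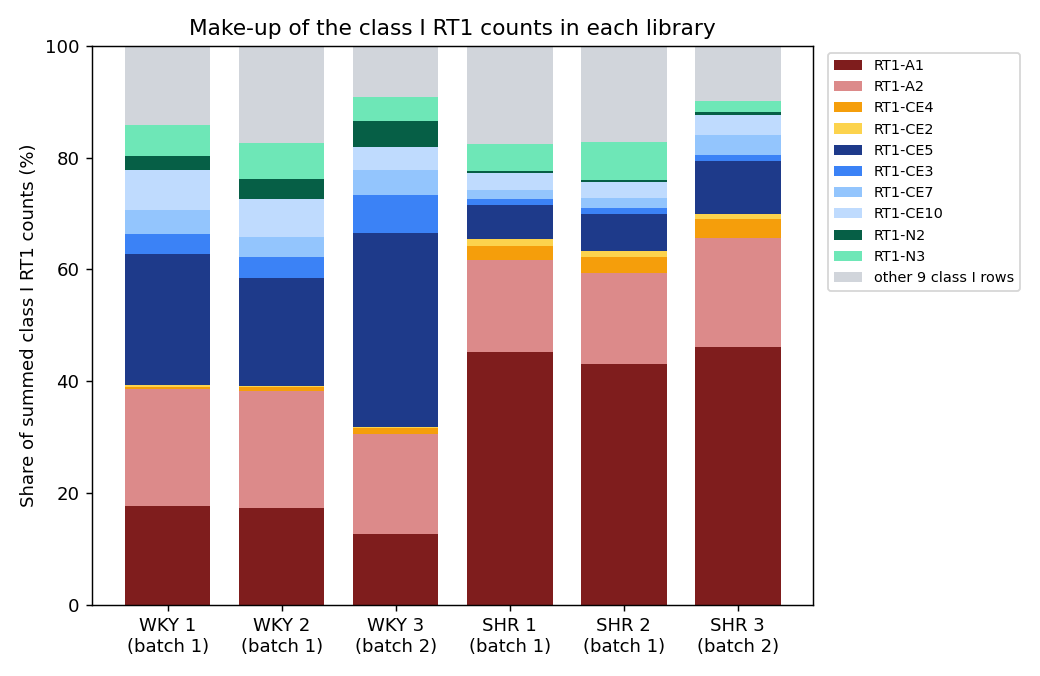
Share of the summed class I RT1 counts, in percent, held by 10 class I genes and by the other 9 together in each of the 6 libraries, as stacked bars. The RT1-A1 share is 12.7% to 17.6% in WKY and 43.1% to 46.2% in SHR, and the RT1-CE5 share is 19.3% to 34.9% in WKY and 6.06% to 9.49% in SHR.

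Ratios of close relatives within a library do not depend on library size. RT1-A1 over RT1-A2 was 0.843, 0.820 and 0.709 in WKY and 2.74, 2.65 and 2.38 in SHR. RT1-CE4 over RT1-CE3 was 0.134, 0.178 and 0.149 in WKY and 2.405, 2.52 and 3.55 in SHR. Both ratios lay below 1 in all WKY libraries and above 1 in all SHR libraries. The levels of RT1-CE4 and RT1-CE3 had each separated the strains, in opposite directions, so their ratio had to separate them too. Both ratios were chosen after the values were seen, and their separation is no further evidence. Pearson correlations between libraries were taken across the 15 class I genes tested, on log2 levels with 0.5 CPM added. They were 0.987 to 0.988 for pairs of 1 strain and 1 batch and 0.771 to 0.856 for pairs of 1 strain across batches. For pairs of both strains in 1 batch they were 0.653 to 0.782, and for pairs that differed in both 0.458 to 0.695. The same figures over the 12 processing genes were 0.988 to 0.994, 0.857 to 0.970, 0.897 to 0.978 and 0.777 to 0.958. These correlations are across genes, which are not independent replicates, and the pairs share libraries.

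**Figure D3:**
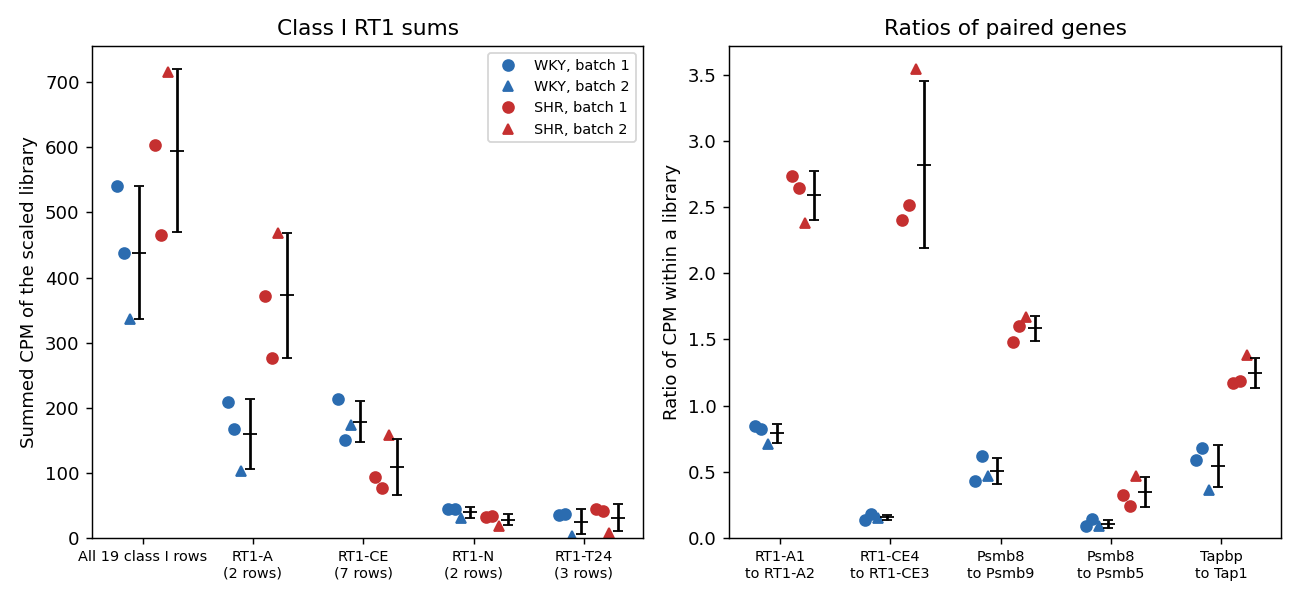
Summed class I levels in CPM (left) and ratios of CPM between paired genes (right), with 1 point per library, blue for WKY and red for SHR, circles for batch 1 and triangles for batch 2, beside the mean with its SD. The sums over all 19 class I genes overlap between strains, while the ratios of RT1-A1 to RT1-A2, RT1-CE4 to RT1-CE3 and Psmb8 to Psmb9 do not. The ratios were chosen after the values were seen.

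Of B2m, Tap1, Tap2, Tapbp and Erap1, none passed the edgeR test. Among them, Tap1 and Tapbp had separate strains, against 9.81% of all genes tested. B2m was at 465, 468 and 443 CPM in WKY and at 573, 421 and 487 CPM in SHR. The strains overlapped, with a log2 fold change of 0.11 (95% confidence interval -0.33 to 0.54, adjusted p = 0.825). Tap1, a subunit of the peptide transporter, was at 55.0, 47.8 and 58.1 CPM in WKY and at 38.2, 37.2 and 43.5 CPM in SHR. All SHR libraries were lower, with a log2 fold change of -0.44 (SE 0.12, edgeR adjusted p = 0.249, DESeq2 adjusted p = 0.0430). Tap2, the other subunit, was at 70.7, 66.0 and 40.7 CPM in WKY and at 51.3, 40.8 and 42.3 CPM in SHR, with overlapping strains and a log2 fold change of -0.36 (adjusted p = 0.469). Tapbp was at 32.5, 32.4 and 21.1 CPM in WKY and at 44.8, 44.0 and 60.04 CPM in SHR. It lay higher in all SHR libraries, the opposite of Tap1, and the ratio of Tapbp to Tap1 was 0.591, 0.676 and 0.363 in WKY and 1.17, 1.18 and 1.38 in SHR. Tapbp had a log2 fold change of 0.80 (SE 0.24, edgeR adjusted p = 0.277, DESeq2 adjusted p = 0.0617). Its differences were 0.45 within batch 1 and 1.49 within batch 2, against -0.44 and -0.41 for Tap1. Erap1, the trimming enzyme, was at 131, 124 and 104 CPM in WKY and at 136, 111 and 110 CPM in SHR. Its strains overlapped, and the log2 fold change was -0.0017 (SE 0.14, adjusted p = 0.996).

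Of the 3 immunoproteasome subunits, Psmb8 differed most between the strains. It was at 9.95, 16.8 and 6.22 CPM in WKY and at 43.0, 36.0 and 24.7 CPM in SHR. The lowest SHR library was above the highest WKY library, and in each strain replicate 3 was the lowest. The log2 fold change was 1.70 (SE 0.25, 95% confidence interval 1.09 to 2.31), a fold change of 3.25, with differences of 1.57 in batch 1 and 1.91 in batch 2. This missed the threshold in edgeR (adjusted p = 0.0961), passed it without WKY replicate 2 (adjusted p = 0.0411) and passed it in DESeq2 (adjusted p = 1.19e-06). Psmb9 was at 23.0, 27.3 and 13.4 CPM in WKY and at 29.0, 22.5 and 14.8 CPM in SHR, and Psmb10 at 28.8, 37.1 and 6.09 CPM in WKY and at 34.5, 29.9 and 10.7 CPM in SHR. Both overlapped between strains, with log2 fold changes of 0.07 (adjusted p = 0.882) and 0.23 (adjusted p = 0.702).

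Set against the standard subunit it replaces, Psmb8 over Psmb5 was 0.0887, 0.139 and 0.0886 in WKY and 0.327, 0.242 and 0.467 in SHR. Psmb9 over Psmb6 was 0.258, 0.266 and 0.250 in WKY and 0.259, 0.175 and 0.445 in SHR. Psmb10 over Psmb7 was 0.138, 0.156 and 0.0627 in WKY and 0.152, 0.136 and 0.132 in SHR. The ratios of Psmb8 to Psmb9, 0.433, 0.615 and 0.465 in WKY, were 1.48, 1.60 and 1.67 in SHR. The ratios of Psmb8 separated the strains, and those of Psmb9 to Psmb6 and Psmb10 to Psmb7 did not. Psme1 and Psme2 encode the interferon-inducible activator of the proteasome. Psme1 was at 88.8, 99.4 and 107 CPM in WKY and at 109, 93.8 and 130 CPM in SHR, with a log2 fold change of 0.17 (adjusted p = 0.631). Psme2 was at 60.6, 55.8 and 56.0 CPM in WKY and at 51.1, 55.4 and 43.3 CPM in SHR, with a log2 fold change of -0.21 (adjusted p = 0.534). The Psme2 libraries of the strains did not overlap, by a margin between 55.4 and 55.8 CPM.

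**Figure D4:**
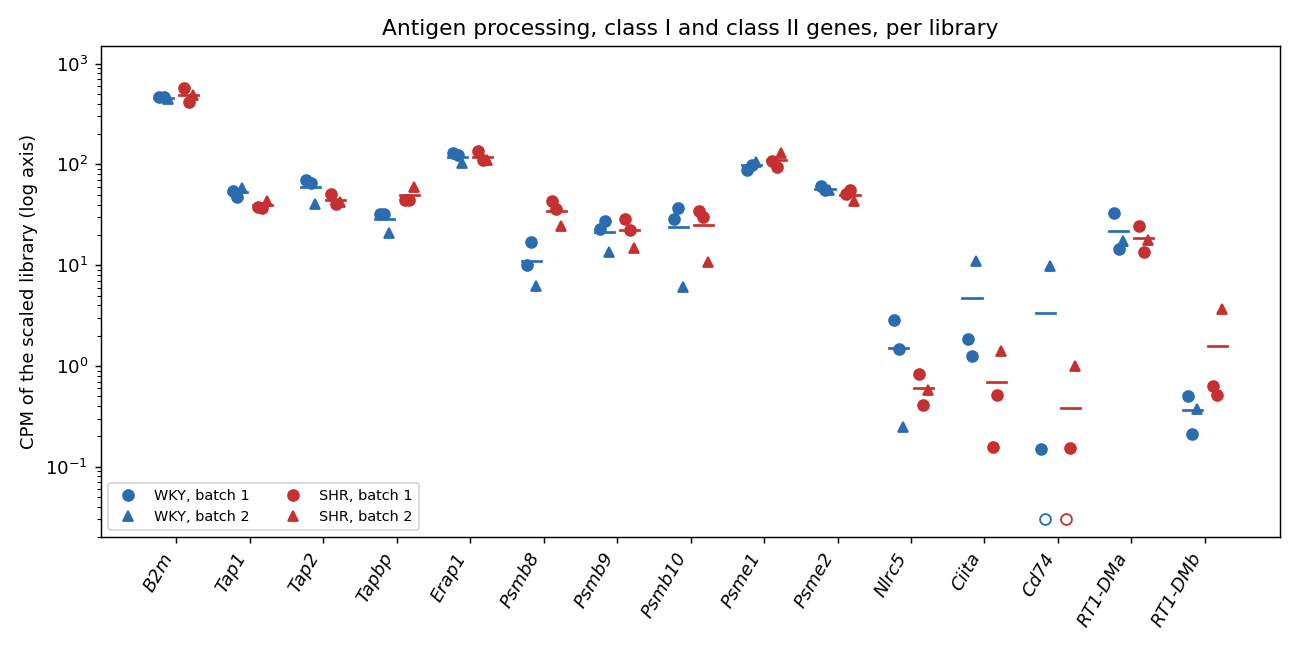
Levels in CPM on a log axis of the 13 processing genes, RT1-DMa and RT1-DMb, with 1 point per library, blue for WKY and red for SHR, circles for batch 1 and triangles for batch 2. Bars are strain means, and open symbols at the foot of the axis stand for libraries at 0. Psmb8 and Tapbp lie higher in all SHR libraries and Tap1 lower, while B2m, Erap1, Psmb9 and Psmb10 overlap.

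The transactivators were low. Nlrc5 was at 2.83, 1.48 and 0.249 CPM in WKY and at 0.840, 0.408 and 0.572 CPM in SHR, with a log2 fold change of -0.99 (adjusted p = 0.628). Without SHR replicate 2 it was -0.37 and without WKY replicate 3 -1.78. Ciita was at 1.87, 1.27 and 11.1 CPM in WKY and at 0.158, 0.510 and 1.40 CPM in SHR. WKY replicate 3 stood far above the others, and the strains overlapped only across batches, SHR replicate 3 lying above WKY replicate 2. The log2 fold change was -2.51 (SE 0.51, edgeR adjusted p = 0.174, DESeq2 adjusted p = 0.00139), with differences of -1.33 within batch 1 and -2.61 within batch 2.

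Class II genes and their invariant chain were near the limit of detection in most libraries. Cd74, the invariant chain that escorts class II molecules, had estimated counts of 3, 0 and 158 in WKY and 0, 3 and 19 in SHR and was not tested. Its reads came nearly all from the replicate 3 libraries, those with the highest Ciita of their strain. RT1-Da had estimated counts of 2, 0 and 2 in WKY and 0, 0 and 24 in SHR, and RT1-Db1 had 4, 0 and 9 in WKY and 0, 0 and 18 in SHR. RT1-Ba had 0, 0 and 11 in WKY and 0, 0 and 7 in SHR, and RT1-Bb had no more than 3 in any library. RT1-DMa, which exchanges peptides on class II molecules, stood apart from these at 33.3, 14.5 and 17.2 CPM in WKY and 24.6, 13.6 and 17.6 CPM in SHR. The strains overlapped for it, with a log2 fold change of -0.21 (adjusted p = 0.849). Its partner RT1-DMb was at 0.505, 0.212 and 0.373 CPM in WKY and at 0.630, 0.510 and 3.64 CPM in SHR, with a log2 fold change of 1.57 (adjusted p = 0.441). The strains did not overlap for RT1-DMb, by a margin between 0.505 and 0.510 CPM, with 10 estimated counts in each of these libraries. The class II sum was 34.1, 14.7 and 19.02 CPM in WKY and 25.2, 14.2 and 23.9 CPM in SHR, in which RT1-DMa was the largest part in every library, with a log2 fold change of -0.10 (95% confidence interval -1.11 to 0.91, adjusted p = 0.936).

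Further genes of the pathway were taken from lists, and edgeR called 0 genes of each list. The counts are to be read against the shares of all genes, which at an unadjusted p below 0.05 were 6.1% higher and 7.18% lower, with 2.68% higher and 2.46% lower by DESeq2, and 9.81% with separate strains. Among 9 interferon receptor and Janus kinase genes, 3 were higher in SHR at an unadjusted p below 0.05 and none lower, DESeq2 called 1 higher, and 4 had separate strains. Ifnar1, a chain of the type I interferon receptor, was at 108, 116 and 110 CPM in WKY and at 145, 147 and 203 CPM in SHR. All SHR libraries were higher, with a log2 fold change of 0.55 (SE 0.15, edgeR adjusted p = 0.255, DESeq2 adjusted p = 0.0210). Ifngr2, a chain of the interferon gamma receptor, was at 43.9, 31.2 and 27.4 CPM in WKY and at 46.9, 53.6 and 56.7 CPM in SHR, with a log2 fold change of 0.63 (adjusted p = 0.316). Among 14 transcription factors of these genes, 0 were higher and 1 was lower at an unadjusted p below 0.05, with 0 DESeq2 calls. The latter was Irf8, at 57.5, 13.2 and 22.8 CPM in WKY and at 5.25, 6.02 and 16.6 CPM in SHR, with a log2 fold change of -1.93 (adjusted p = 0.376) and overlapping strains. Irf2 had a log2 fold change of 0.32 (adjusted p = 0.483).

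Among 12 peptide loading and trimming genes, 1 was higher at an unadjusted p below 0.05, with 0 DESeq2 calls, and 4 had separate strains, Tapbpl higher and Calr, Tpp2 and Lnpep lower in SHR. Tapbpl edits peptides on class I molecules like its relative Tapbp, and was at 40.5, 41.4 and 28.4 CPM in WKY and at 60.1, 47.5 and 58.1 CPM in SHR. Its strains did not overlap, and the log2 fold change was 0.60 (SE 0.19, adjusted p = 0.284). Lnpep, an aminopeptidase of endosomes, was at 42.2, 38.4 and 59.6 CPM in WKY and at 9.55, 30.5 and 30.4 CPM in SHR, with a log2 fold change of -0.99 (adjusted p = 0.404). Of 18 standard proteasome genes, 1 was lower at an unadjusted p below 0.05, with 0 DESeq2 calls. Psme4 had a log2 fold change of -0.45 (adjusted p = 0.309) and Psme3 one of -0.31 (adjusted p = 0.4996). In batch 2, 15 of the 18 fell and 0 rose at an edgeR adjusted p below 0.05, against 22.5% and 21% of all genes. Of 6 class II processing genes tested, none had an unadjusted p below 0.05, with 0 DESeq2 calls and with Lgmn at 0.34 (adjusted p = 0.501) and Cd63 at -0.31 (adjusted p = 0.623) on the log2 scale. Among 6 class I-like genes outside the complex, 1 was lower at an unadjusted p below 0.05, with 0 DESeq2 calls. Procr, a class I-like receptor for protein C, had a log2 fold change of -0.62 (with SE 0.24, adjusted p = 0.363), and Fcgrt, the class I-like receptor for IgG, one of 0.57 (adjusted p = 0.424).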

How the data were processed

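The authors deposited a table of estimated counts per gene for 6 libraries. The submitters' processing notes name Bowtie2 2.4.4, RSEM 1.2.28, DESeq2 1.42.1 and build Rnor_6.0, whose roles are not given in the sources used here. A second deposited table, on a log scale, was not used. Estimated counts were rounded, and genes were kept with edgeR's filterByExpr by strain, scaled by TMM and tested with edgeR 4.0.16 in R 4.3.3 (quasi-likelihood F-test, terms for batch and strain, 3 residual degrees of freedom, Benjamini-Hochberg over 12614 genes, threshold 0.05, two-sided). Code was tested on simulated data. Alternatives were DESeq2 1.42.0, median-of-ratios scaling, no filter, no batch term, a replicate block, leaving out each library, and batch 1 alone. Levels in CPM use TMM-scaled library sizes, with scaling factors of 0.873 to 1.07. Within-batch log2 differences add 0.5 CPM. Same-numbered libraries deviated together (r of 0.303 to 0.655 for the 3 pairs). Each r over 0.1 led to the block being treated as a pairing. In batch 1, however, same-numbered pairs had r of 0.303 and 0.400, below the 0.484 and 0.493 of differently numbered pairs. These r therefore cannot set a pairing by number apart from batch. No library pair agreed within sampling noise (chi-square of 46.0 to 473 per gene). Named were RT1 genes averaging 1 CPM or more over the 6 libraries, called RT1 genes, the 13 processing genes and, per further list, called genes or those with the 2 smallest p. The other RT1 genes are named to account for every member, and Calr, Tpp2, Socs1, Ifnar2 and the ratios were chosen after their values were seen. The genes and lists were chosen with earlier results of these data known. All 38 gene IDs and 94.1% of all IDs matched RefSeq. List genes without a row in the table were not analysed here.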

Additional observations from a re-analysis of the deposited data

How the results depend on the processing

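Of 435 values of 36 results under the alternatives, 371 kept their direction and their side of the threshold or, for the counts of calls, stayed near the main count. Most results were not called in the main fit, so for them an uncalled value counts as kept. RT1-CE4 and RT1-CE3, the called genes, lost their call in 17 values. Over all genes the count of calls was 32, and it was 719 with DESeq2, 2 without the batch term, 6 with the replicate block and between 0 and 65 when 1 library was left out. Of the genes described here, 2 were called by edgeR, 9 by DESeq2, and 0 without the batch term, with the replicate block or within batch 1 alone, where 8, 10 and 14 of 29 had an unadjusted p below 0.05, against 4.62%, 9.41% and 10.5% of all genes. Leaving out 1 library gave between 0 and 2 calls, with Psmb8 and RT1-CE4 called without WKY replicate 2. The replicate block, read as a pairing, ended the calls of RT1-CE4 and RT1-CE3 and changed no other call. The class I sum turned to -0.16 (log2) without RT1-A1, and the class II sum ranged from -0.33 to 0.38 when 1 library was left out. Some small, uncalled differences changed sign. Erap1 was at 0.014 with DESeq2, 0.016 with median-of-ratios scaling and 0.00900 without a filter. Leaving out 1 library moved Erap1 between -0.059 and 0.089, RT1-DMa between -0.46 and 0.23, RT1-N3 between -0.015 and 0.082, RT1-A2 between -0.22 and 0.50, Psmb10 between -0.031 and 0.42, B2m between -0.00669 and 0.23 and Psmb9 between -0.011 and 0.18. Within batch 1, RT1-A2 was at -0.23 and Psmb10 at -0.035. Leaving out 1 library also moved RT1-T24-3 between 0.39 and 1.67, RT1-CE7 between -1.08 and -0.12, RT1-CE10 between -1.12 and -0.14 and Ciita between -3.11 and -2.20. The causes were not tested. With 3 libraries per strain, and batch 2 resting on 1 library each, a p that misses the threshold does not show that strains were alike.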
